A study of Mus musculus with 8 samples.

Results

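Expression of 9 sebaceous gland genes was followed in mouse cheek skin after an injection of BNP (brain natriuretic peptide), with and without the transcription factor TBX20 in keratinocytes. The genes were chosen by name, as known products of the sebaceous gland, with earlier results of these data known. They are Scd3, Awat1, Awat2, Elovl3, Dgat2l6, Mc5r, Krt79, Far2 and Mgst1. All 9 were among the 18901 genes of the deposited table. RNA-seq compared 4 TBX20fl/fl;K14-Cre samples with 4 TBX20fl/fl samples, each taken here as 1 mouse and named by the number in its label. Mice of both groups carried floxed Tbx20 alleles, were 7-week-old females and received 10 µg of BNP in the cheek, where the fur had been shaved. They were euthanised 5 h after behaviour had been recorded for 30 min. TBX20fl/fl;K14-Cre mice also carried Cre under the keratin 14 promoter, which is active in basal keratinocytes, where Cre removes exons 2 to 3 of Tbx20. The littermate TBX20fl/fl mice had no Cre. The groups are called knockout and control from here on. The Cre line came from C57BL/6N mice and the floxed line from C57BL/6J mice. No mice with Cre but without floxed Tbx20, and none without BNP, were analysed here. The labels do not say whether any sample was pooled, so p-values measure only the spread between these samples.

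The sebaceous gland opens into the hair follicle and coats hair and skin with sebum. Its cells, the sebocytes, fill with lipid droplets as they mature and then burst, releasing wax esters, triglycerides and other lipids. They share keratin 14-positive basal progenitors with the epidermis. The members stand at successive steps of this programme. Scd3 introduces a double bond into saturated fatty acids, and Elovl3 lengthens fatty acids into very long chains. Far2 reduces fatty acyl chains to fatty alcohols, which Awat1 and Awat2 join to fatty acids to make wax esters. Dgat2l6 belongs to the same acyltransferase family. Mc5r is the melanocortin receptor through which sebum secretion is stimulated, Krt79 is a keratin of the gland duct and the upper follicle, and Mgst1 is a microsomal glutathione transferase abundant in sebocytes.

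Scd3 and Dgat2l6 were the members with the largest differences between the genotypes, one higher and the other lower in knockout skin. Their upstream sequences are therefore shown, as the 250 bases before the annotated start in RefSeq on GRCm38.p6, read 5′ to 3′ on the gene's own strand. The window of Scd3 is chr19:44203038-44203287 on the plus strand, and that of Dgat2l6 is chrX:100524588-100524837 on the plus strand. Capitals mark the T-box core motif GGTGTG, which in Scd3 lies on the opposite strand and so reads CACACC, starting 119 bases before the gene.

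Scd3: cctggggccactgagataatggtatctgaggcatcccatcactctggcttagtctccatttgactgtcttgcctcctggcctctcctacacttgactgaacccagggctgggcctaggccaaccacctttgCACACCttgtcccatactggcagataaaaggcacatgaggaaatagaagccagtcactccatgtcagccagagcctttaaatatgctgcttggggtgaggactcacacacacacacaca

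Dgat2l6: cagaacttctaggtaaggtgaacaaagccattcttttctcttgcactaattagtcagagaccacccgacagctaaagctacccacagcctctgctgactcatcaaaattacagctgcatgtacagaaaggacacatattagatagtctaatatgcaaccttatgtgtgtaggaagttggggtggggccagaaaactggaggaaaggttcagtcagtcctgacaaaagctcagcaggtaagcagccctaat

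RefSeq start windows of 300 bases (250 before the start to 50 after it) were found for 7 of the 9 members and held 9 annotated starts. GGTGTG was present on either strand in 3 of these 9 windows, those of Scd3, Far2 and the second start of Awat2, and in 19.05% of all 32851 windows. The longer T-box motif AGGTGTGA was in 0 of the 9 and in 1.28% of all windows. None of the 9 held the PPAR motif, AGGTCA and any base and AGGTCA again (0.0396% of all windows), the androgen or glucocorticoid receptor motif, AGAACA and any 3 bases and TGTTCT (0.00913%) or the SREBP motif TCACNCCAC (1.24%). AGGTCA, which is part of the PPAR motif, and TATAAA were also in 0 of the 9 windows, against 16.3% and 13.6% of all windows. These matches describe letters in the sequence and not binding.

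Several members are neighbours in the genome. Awat2 (minus strand, 100402221 to 100494278), Dgat2l6 (plus strand, 100524838 to 100546108) and Awat1 (plus strand, 100572247 to 100578206) lie on chromosome X within 176.0 kb. Scd3 (44203288 to 44244016, plus strand) lies on chromosome 19 at the end of a 204.4 kb cluster with its paralogs Scd2, Scd4 and Scd1. Elovl3 is on the same chromosome at 46131897 to 46135694. Far2 (148047416 to 148182758) and Mgst1 (138140527 to 138156755) are on chromosome 6, Krt79 (101929332 to 101940324) on chromosome 15 and Mc5r on chromosome 18. Reads of 50 bases cannot always be told apart between related genes. In Scd3, 6.57% of all 50-base stretches of its annotated transcripts were also in transcripts of other genes, including Scd1, Scd2 and Scd4. The share was 10.8% in Far2, shared with Ergic2, Far2os2, Rmi2 and Tnnt1, and 0.435% in Dgat2l6. It was 0 in the other 6 members. Whether the counting used strand is not given in the sources used here, so reads from overlapping genes on opposite strands may not be separated.

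Total counts per mouse ranged from 16056282 to 19880654, and a floor of 3 counts equals 0.151 to 0.187 CPM (counts scaled to the library total), for counting error only. Tbx20 itself was near the floor in both groups, with 0 to 2 counts in knockout and 0 to 3 in control mice, and its loss could not be seen at this depth. Control replicate 2 stood apart. Across genes, its median Spearman correlation with other libraries was 0.936, against 0.978 to 0.990 for each of the others, and its TMM normalization factor was 0.735, against 1.01 to 1.07. Its deviations were lower the longer the transcript (Spearman's rho of -0.785 across 13298 genes, which are not independent). In control replicate 3 this value was -0.565, and in the other 6 mice it was -0.063 to 0.459. The log2 fold changes of the members and of other named lipid genes are therefore also given without control replicate 2 and with the length trend of each mouse removed.

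The gland was well represented in every library. All 6 genes fixed as its defining markers (Scd1, Pparg, Plin2, Cidea, Soat1 and Fasn) were detected in every mouse, and the desaturase Scd1 reached an FPKM (fragments scaled to transcript length and library size) of 545.3 to 1786. Fat cells express several of the same genes. The summed level of the 6 was 7035 to 9575 CPM in knockout mice and 5615 to 10545 CPM in control mice. The members themselves made up 0.267% to 0.477% of all counts. Of the markers of salivary and lacrimal gland, Smr3a and Smr2 had 3 counts or fewer in every mouse, 4 were not in the table, and the summed level was 80.8 to 98.2 CPM against 69.0 to 177.8 CPM. In whole skin, fewer sebocytes and less RNA per sebocyte cannot be told apart.

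The levels of the members, compared per transcript length as mean FPKM over the 8 mice, spanned from 931.0 for Mgst1 to 10.1 for Mc5r. Mgst1 ranked 105 of 18901 genes and exceeded Krt79 (mean 338.4) in 8 of 8 mice. Its lowest mouse was 1.55 times the highest value of Krt79. Krt79 lay above Far2 (304.3) in 7 of 8 mice, and Far2 lay above Awat1 (158.8) in all 8. Awat1 and Elovl3 (149.6) were close neighbours, with Awat1 higher in 6 of 8 mice. Elovl3 exceeded Awat2 (104.2) in 8 of 8 mice, Awat2 exceeded Dgat2l6 (77.7) in 7, and Dgat2l6 exceeded Scd3 (55.7) in 6. Mc5r was below Scd3 in all 8 mice and ranked 6706 of 18901. Apart from Mgst1 and Krt79, the range over the mice of each gene overlapped that of the next gene in the order.

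**Figure D1:**
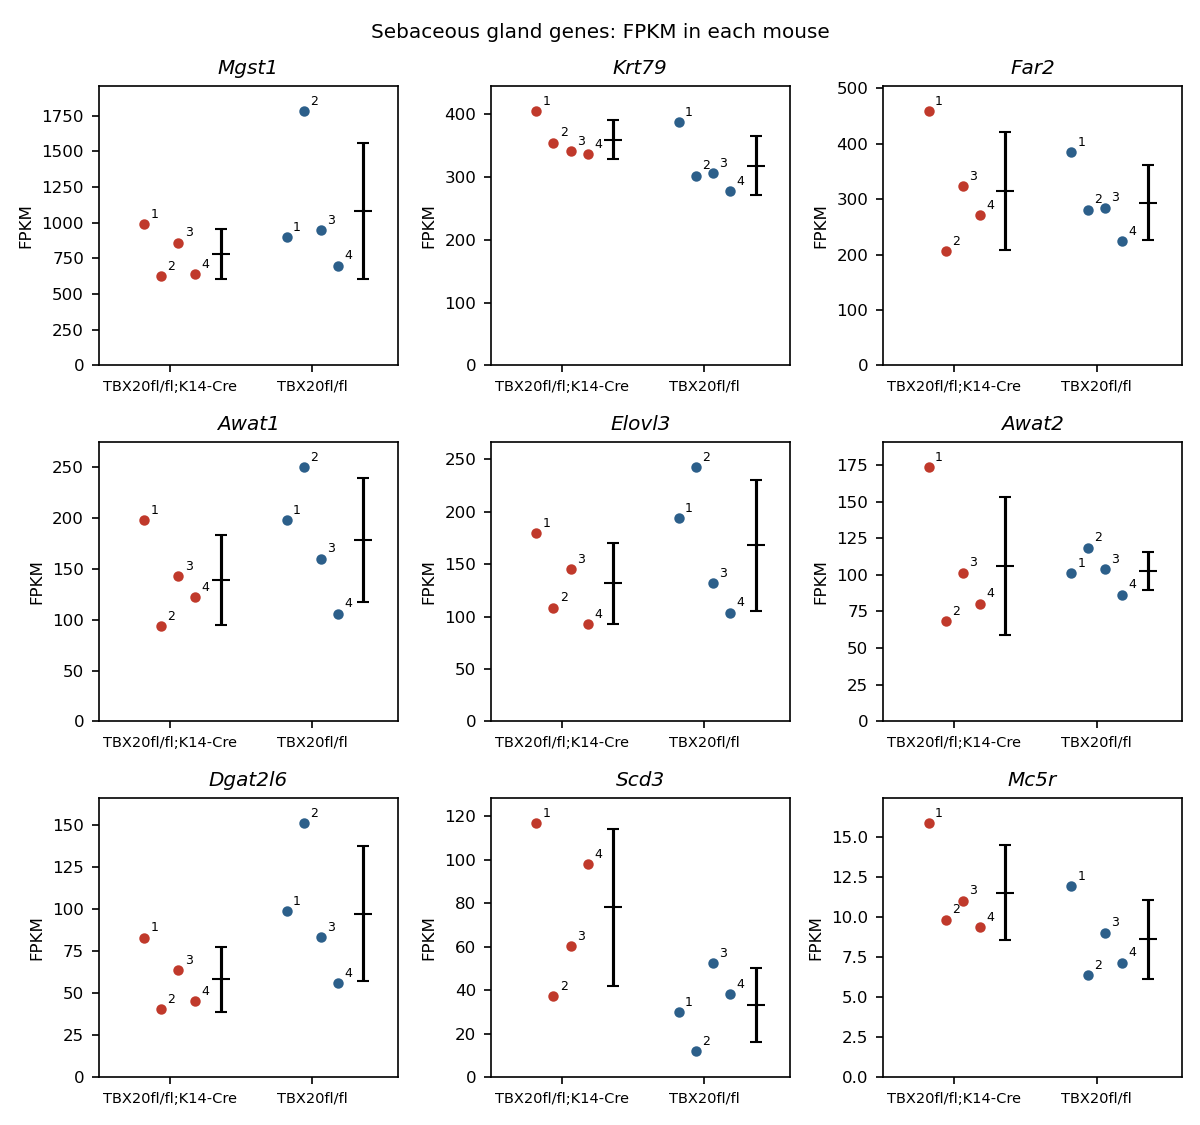
FPKM of each of the 9 members in each mouse, with knockout mice in red and control mice in blue. Small numbers are the replicate numbers, and black bars are the mean and SD of 4 mice. In all 9 panels the groups overlap, and control replicate 2 is the highest of the 8 mice in 4 panels and the lowest in the panels of Scd3 and Mc5r.

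Across the whole set, the genotypes were not separated. By edgeR's quasi-likelihood test, no member passed a Benjamini-Hochberg adjusted p of 0.05, nor did any of the 17124 genes tested (0.0%, smallest adjusted p = 0.498). At an unadjusted p under 0.05, Scd3 was higher and Dgat2l6 was lower in knockout skin. That is 1 of 9 members in each direction, against 2.45% of all genes tested higher and 5.91% lower (8.36% in either direction). With control replicate 2 left out, 1 of 9 members (Scd3) had an unadjusted p under 0.05, against 7.69% of all genes. Scd3 was likewise the 1 member with the length trend removed (8.75% of all genes) and in the fit blocked on replicate number (10.1% of all genes). The log2 fold change was below 0 in 6 of the 9 members and in 47.5% of all genes, with a median of -0.15 in the members and 0.026 in all genes. This direction rested on single mice, since without control replicate 2 only 4 of 9 members were below 0 and their median was 0.038. The median was 0.0098 without knockout replicate 2 and -0.51 without knockout replicate 1. DESeq2's Wald test passed 10 of all genes, none of them members. In FPKM, the groups overlapped in 9 of 9 members, whereas they stood apart in 7.37% of the 15970 genes whose mean FPKM reached 0.1 (5.45% higher and 1.92% lower in knockout skin).

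Among the enzymes that build fatty acids, Scd3 had the largest difference. Its FPKM was 116.7, 37.3, 60.4 and 98.2 in knockout replicates 1 to 4, and 30.1, 12.2, 52.5 and 38.2 in control replicates 1 to 4. Replicates 1, 3 and 4 of knockout lay above every control mouse, and the remaining one lay within the control range. The group means were 78.1 ± 35.9 (SD, n = 4) and 33.2 ± 16.8 (SD, n = 4), a ratio of 2.35 (two-sided exact permutation test, p = 0.0857, adjusted p = 0.403 over all genes). From counts, which were 2517 to 7690 and 669 to 3404, the log2 fold change was 1.14 (SE 0.420, 95% interval 0.19 to 2.08). In edgeR's test the adjusted p was 0.498. Among same-numbered mice, a pairing that the labels do not state, Scd3 was higher in knockout skin in 4 of 4. The log2 fold change of Scd3 with the replicate number as a block was 1.12 (edgeR adjusted p = 0.405). It was 0.91 without control replicate 2 (edgeR adjusted p = 0.638) and 1.05 with the length trend removed (edgeR adjusted p = 0.538).

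The paralogs of Scd3 gave smaller values. The mean FPKM of Scd1, the most abundant desaturase of skin, was 1330 ± 217 (SD, n = 4) in knockout and 1265 ± 540 (SD, n = 4) in control mice, with a log2 fold change of -0.031. It was -0.22 without control replicate 2, the lowest mouse for Scd1 at an FPKM of 545.3, and -0.25 with the length trend removed, while leaving out any 1 mouse gave -0.22 to 0.15. The log2 fold change of Scd2 was 0.66 (edgeR adjusted p = 0.498), and it was 0.43 without control replicate 2, 0.39 without knockout replicate 2 and 0.41 with the length trend removed. That of Scd4 was 0.051, and in the same fits without control replicate 2 and with the trend removed it was 0.18 and -0.023. The FPKM of Scd3 as a ratio to that of Scd1 was 0.0928, 0.0310, 0.0365 and 0.0813 in knockout replicates 1 to 4, and 0.0168, 0.0224, 0.0443 and 0.0247 in control replicates 1 to 4. Replicates 1 and 4 of knockout had the highest ratios of the 8 mice. Elovl3 ran the other way from Scd3. Its FPKM was 131.5 ± 39.0 (SD, n = 4) against 167.8 ± 62.3 (SD, n = 4), and its log2 fold change was -0.58 (SE 0.377, 95% interval -1.43 to 0.26, adjusted p = 0.508 in edgeR's test). Without control replicate 2, its highest mouse, it was -0.16, and with the length trend removed it was -0.36.

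Far2, which makes the alcohols for wax esters, was spread widely within both groups. Its FPKM was 458.3, 206.6, 323.0 and 271.2 in knockout replicates 1 to 4 and 385.2, 281.0, 284.9 and 224.5 in control replicates 1 to 4. The highest and the lowest of the 8 mice were both knockout mice. The log2 fold change of Far2 was -0.066 (SE 0.291, 95% interval -0.72 to 0.59, adjusted p = 0.905 in edgeR's test), 0.038 without control replicate 2 and -0.22 with the length trend removed.

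Of the acyltransferases on chromosome X, Dgat2l6 had an FPKM of 83.0, 40.8, 63.7 and 45.4 in knockout replicates 1 to 4 and of 98.9, 150.9, 83.2 and 55.9 in control replicates 1 to 4. Replicates 1, 2 and 3 of control lay above every knockout mouse, the third of them by a narrow margin, and replicate 4 fell within that group's range. Dgat2l6 averaged 58.2 ± 19.3 (SD, n = 4) against 97.2 ± 39.9 (SD, n = 4) and was thus 1.67-fold lower in knockout skin (exact permutation test, p = 0.114, adjusted p = 0.422 over all genes). Its log2 fold change from counts was -0.99 (SE 0.408, 95% interval -1.90 to -0.068, edgeR adjusted p = 0.498). It was lower in 4 of 4 same-numbered pairs, with a log2 fold change of -0.84 under the replicate block. Without control replicate 2 the value was -0.49, and with the length trend removed it was -0.66. Under each of these 3 fits Dgat2l6 no longer had an unadjusted p under 0.05.

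Awat1 had an FPKM of 197.9, 93.5, 142.9 and 122.1 in knockout replicates 1 to 4 and of 198.1, 249.9, 160.2 and 106.1 in control replicates 1 to 4. Its log2 fold change was -0.59 (SE 0.370, 95% interval -1.42 to 0.24, adjusted p = 0.502 in edgeR's test), -0.20 without control replicate 2 and -0.21 with the length trend removed. Awat2 was nearly level between the groups, with a mean FPKM of 106.0 ± 46.9 (SD, n = 4) in knockout and 102.5 ± 13.2 (SD, n = 4) in control mice and a log2 fold change of -0.15 (SE 0.326, 95% interval -0.88 to 0.59, adjusted p = 0.803 in edgeR's test). It turned to 0.087 without control replicate 2 and to 0.12 with the length trend removed. Knockout replicate 1 stood at an FPKM of 173.3, while the other 3 knockout mice spanned 68.6 to 101.6 and control mice 86.5 to 118.6. In CPM, however, control replicate 2 was at 254.8, close to knockout replicate 1 at 264.3. The ratio of Awat1 to Awat2 in FPKM was 1.14 to 1.52 in knockout mice and 1.23 to 2.11 in control mice. Both enzymes make wax esters, and neither differed beyond the spread of the mice.

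The remaining members are not enzymes of wax ester or fatty acid synthesis. Mc5r, the melanocortin receptor, had an FPKM of 15.9, 9.86, 11.0 and 9.40 in knockout replicates 1 to 4 and of 11.95, 6.39, 9.05 and 7.17 in control replicates 1 to 4. It was higher in the knockout mouse of 4 of 4 same-numbered pairs, yet the groups overlapped, since control replicate 1 exceeded 3 knockout mice. The log2 fold change of Mc5r was 0.28 (SE 0.225, 95% interval -0.23 to 0.78, adjusted p = 0.539 in edgeR's test), 0.26 without control replicate 2 and 0.078 with the length trend removed. Without knockout replicate 1, the highest mouse, it was 0.065.

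Krt79, the duct keratin, varied least of the members, with a highest mouse 1.46 times the lowest against 9.57 times for Scd3. Its FPKM was 358.9 ± 31.1 (SD, n = 4) against 318.0 ± 47.6 (SD, n = 4), higher in 4 of 4 same-numbered pairs (exact permutation test, p = 0.2). In CPM, Krt79 was instead higher in control replicate 2 (841.1) than in knockout replicate 2 (681.8). Its log2 fold change from counts was 0.0011 (SE 0.188, 95% interval -0.42 to 0.42, adjusted p = 0.998 in edgeR's test), with a sign that depended on the scaling, 0.11 without control replicate 2 and 0.12 with the length trend removed. Mgst1 ranged from 628.2 to 991.5 FPKM in knockout mice and from 700.2 to 1781 FPKM in control mice. The upper end was control replicate 2, and without this mouse the log2 fold change of Mgst1 went from -0.73 (SE 0.399, adjusted p = 0.498 in edgeR's test) to -0.16. With the length trend removed it was -0.13.

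**Figure D2:**
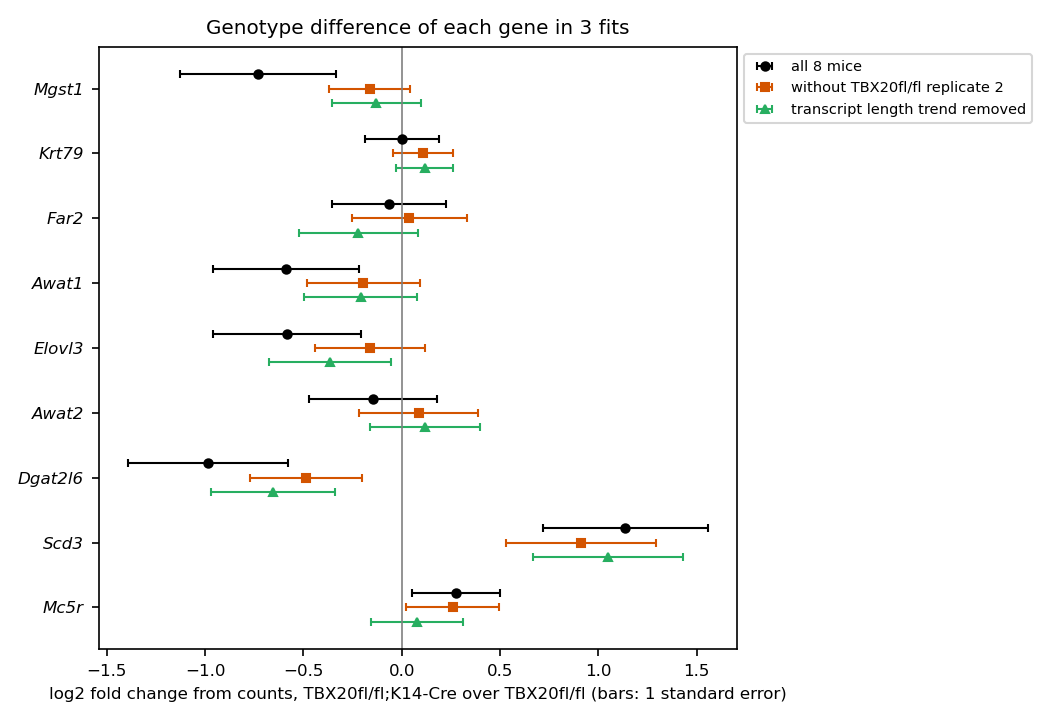
Log2 fold change from counts, knockout over control, of each member in edgeR fits on all 8 mice, without control replicate 2 and with the transcript length trend removed. Bars are 1 standard error. Scd3 is the member farthest above 0 in all 3 fits and Dgat2l6 the one farthest below 0, while Mgst1 goes from -0.73 with all mice to -0.16 and -0.13.

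Individual mice differed in several members at once. Knockout replicate 1 had the highest FPKM of the 8 mice in Scd3, Awat2, Mc5r, Krt79 and Far2. Knockout replicate 2 had the lowest in Awat1, Awat2, Dgat2l6, Far2 and Mgst1. Control replicate 2 was highest in Awat1, Elovl3, Dgat2l6 and Mgst1. The mean log2 CPM over the members was 8.43, 7.44, 7.90 and 7.67 in knockout replicates 1 to 4 and 8.07, 8.50, 7.96 and 7.52 in control replicates 1 to 4, so both groups held mice at either end.

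Scd3 departed from the other members in several mice. As log2 CPM minus the mean of each gene over the 8 mice, Scd3 was at 1.00 in knockout replicate 4, whereas the other 8 members were at -0.76 to -0.10. In control replicate 2 it was at -1.46, and 7 of the others were at 0.29 to 1.52. In control replicate 1 it was at -0.65, and 6 of the others were at 0.16 to 0.43. Scd3 was also above all other members in knockout replicates 1 (1.31 against at most 0.74) and 3 (0.31 against at most 0.089). The ratio of Scd3 to Dgat2l6 in FPKM was accordingly 0.91 to 2.16 in knockout mice and 0.081 to 0.68 in control mice. These ratios did not overlap, but this pair was chosen after its values were seen and no test is given.

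**Figure D3:**
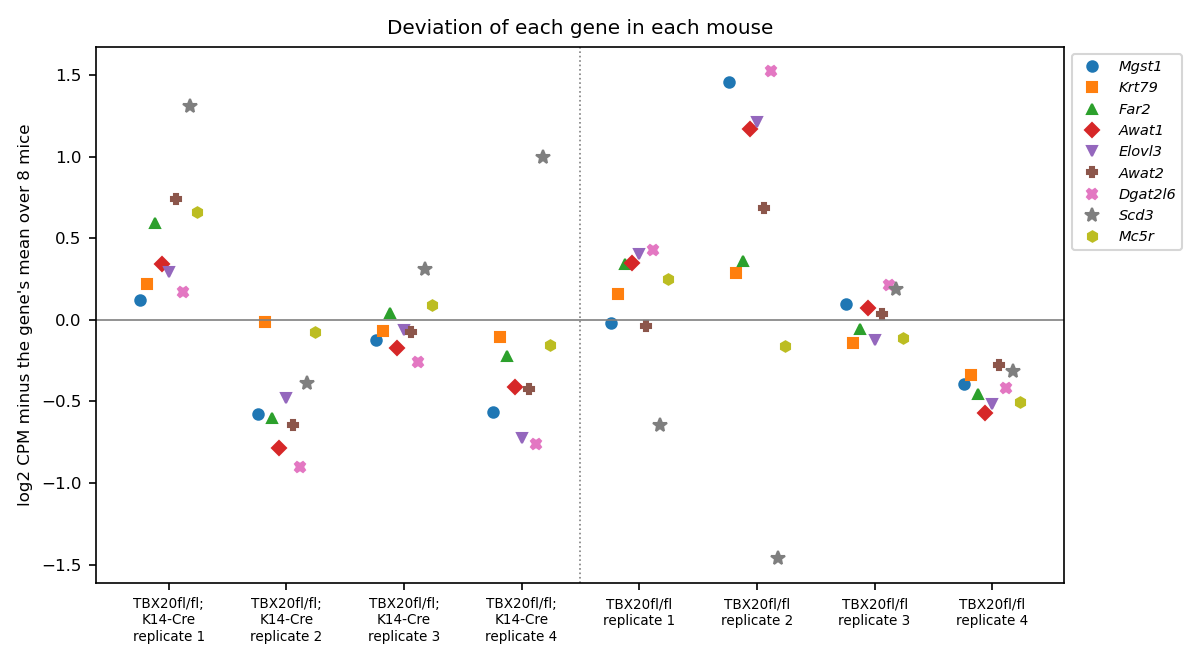
Log2 CPM of each member in each mouse minus the mean of that gene over the 8 mice, with the genotypes divided by the dotted line. Each symbol is 1 gene. Scd3 (grey stars) is at 1.00 in knockout replicate 4 and at -1.46 in control replicate 2, on the other side of 0 from nearly all other members.

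In control replicate 2, the deviations of the members followed transcript length only in part. Transcript lengths are those implied by counts and FPKM, and deviations are log2 CPM minus the median over the 7 remaining mice. That of Mgst1, the shortest at 909 bases, was 1.58, and 0.46 once the length trend was removed. For Awat1 (1346 bases) it went from 1.34 to 0.47, and for Awat2 (1576 bases) from 0.76 to 0.16. Those of Dgat2l6 (1558 bases) and Elovl3 (1834 bases) stayed larger, at 1.08 and 0.99 after removal. Scd3 (3421 bases) was at -1.65 and at -1.34 after removal, while Far2, of similar length at 3451 bases, was at 0.42 and 0.73.

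**Figure D4:**
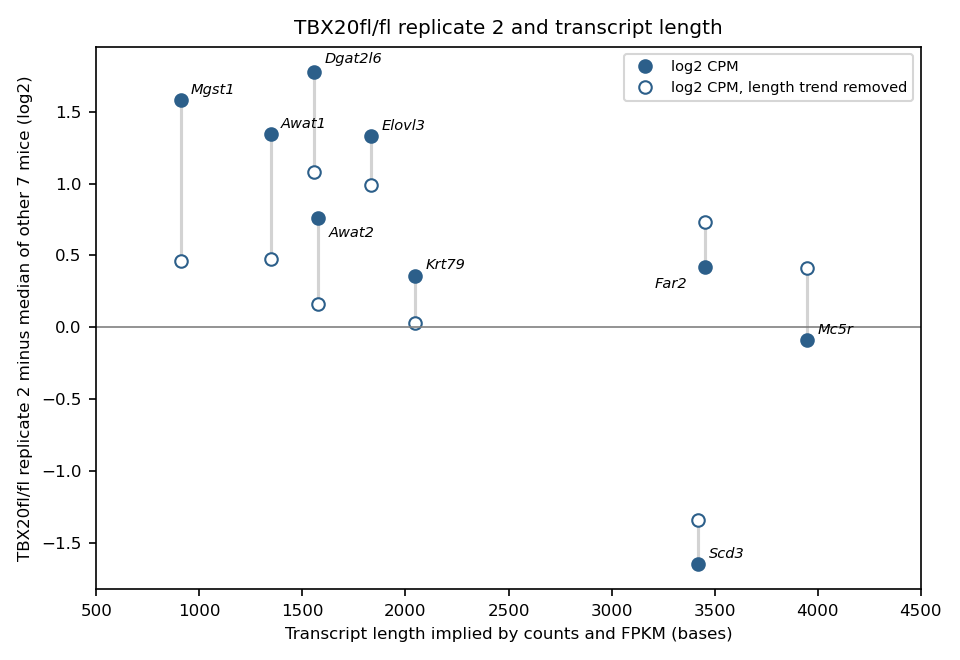
Log2 CPM of control replicate 2 minus the median of the other 7 mice, against transcript length in bases, for the 9 members. Filled circles are values as normalized and open circles are values with the length trend removed. The 5 members with the shortest transcripts lie 0.76 to 1.78 above 0 before removal, and Scd3 lies at -1.65.

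Markers of other cells in the skin were read beside the members. Counts of higher or lower genes below are at an unadjusted edgeR p under 0.05. Of all genes tested, 2.45% were higher and 5.91% lower at this threshold. Of 13 hair follicle genes 12 were in the table, and all 12 had a log2 fold change above 0 (median 2.67). Of these 12, 10 had an unadjusted edgeR p under 0.05, and 7 did without control replicate 2. The summed level of the 12 was 101.8 to 3903 CPM in knockout mice and 54.4 to 278.3 CPM in control mice. The mouse at 3903 CPM was knockout replicate 2, the mouse lowest in 5 members. Knockout replicate 3 was at 552.7 CPM, while replicates 1 and 4, at 101.8 and 147.8 CPM, lay within the control range. With this list as a covariate, the log2 fold change was 1.40 for Scd3 (edgeR adjusted p = 0.347) and -0.95 for Dgat2l6 (edgeR adjusted p = 0.357), which then no longer had an unadjusted p under 0.05. With the genes of the interfollicular epidermis as the covariate, Scd3 was at 1.01 and lost its unadjusted p under 0.05, and Dgat2l6 was at -1.18. With the skeletal muscle genes they were at 1.01 and -0.97, both with an unadjusted p under 0.05. Of 7 neutrophil and macrophage genes, 4 were lower at an unadjusted p under 0.05 (summed level 962.2 to 1420 CPM against 1238 to 3493 CPM), as were 4 without control replicate 2 and 4 with the length trend removed. The 3493 CPM were those of control replicate 2, and the other 3 control mice reached 1810 CPM. Of 6 fibroblast genes 2 were higher, and 1 with the length trend removed. The part of these 2 lists in the values of the members was not tested. Of 11 genes of the interfollicular epidermis 1 was higher, and 0 with the length trend removed. Of 8 adipocyte genes 1 was lower, but 0 passed without control replicate 2 and 1 was higher with the length trend removed. Of 8 skeletal muscle genes 1 was lower, and 0 passed in either of these fits.

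The members were set beside 59 other genes of sebaceous lipid metabolism and its regulation. In edgeR's test 0 of the 59 passed the adjusted threshold, 0 were higher and 3 lower at an unadjusted p under 0.05, against 2.45% and 5.91% of all genes. The log2 fold change was below 0 in 18 of the 59, against 47.5% of all genes. Its median was 0.13, which became 0.056 without control replicate 2 and 0.057 with the length trend removed. Fatty acid synthesis and desaturation had 0 of 14 genes at an unadjusted p under 0.05, with a median of 0.33 that was 0.096 without control replicate 2. Its genes with the smallest p were Fads2 and Fads1, desaturases of polyunsaturated fatty acids, with log2 fold changes of 0.93 and 0.51. That of Fads2 rested on knockout replicate 2 and was 0.27 without it. Without control replicate 2 the values were 0.87 for Fads2 and 0.32 for Fads1, and with the length trend removed they were 0.88 and 0.42. The 11 cholesterol genes also held 0. Those with the smallest p were Cyp51, a sterol demethylase, at -0.40, and Srebf2, the transcription factor that drives this pathway, at 0.44. Without control replicate 2 they were at -0.20 and 0.21, and with the length trend removed at -0.72 and 0.25, where Cyp51 had an unadjusted p under 0.05.

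In the list of 16 esterification, ether lipid and droplet genes, 6 had a log2 fold change below 0. The 1 gene lower at an unadjusted edgeR p under 0.05 was Far1, a widely expressed paralog of Far2 that supplies fatty alcohols for ether lipids. Its FPKM was 26.5 to 31.9 in knockout mice and 34.7 to 37.2 in control mice, so the groups did not overlap. The groups also stood apart in 7.37% of all genes compared in FPKM (1.92% lower in knockout skin). The exact permutation p of Far1 was 0.0286, as low as 4 against 4 can give (adjusted p = 0.388 over all genes). From counts, the log2 fold change of Far1 was -0.51 (SE 0.152, edgeR adjusted p = 0.498), -0.40 without control replicate 2 and -0.85 with the length trend removed. Agpat2, an enzyme of triglyceride synthesis, had the next smallest p, with a log2 fold change of -0.36. It was -0.22 without control replicate 2 and -0.078 with the length trend removed. Under the replicate block it was -0.37, with an unadjusted p under 0.05.

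Of 18 regulators and other gland or duct markers, 4 had a log2 fold change below 0. Mrap and Fabp5 were the 2 lower at an unadjusted edgeR p under 0.05. Mrap, an accessory protein of melanocortin receptors, had an FPKM of 13.9 to 20.3 in knockout mice and 23.9 to 28.5 in control mice. Its log2 fold change was -0.84 (SE 0.207, adjusted p = 0.498 in edgeR's test), -0.66 without control replicate 2 and -0.45 with the length trend removed. Fabp5, a fatty acid carrier also found in epidermis, ranged from 939.1 to 1328 FPKM against 1345 to 2581 FPKM. Its log2 fold change was -0.84 (SE 0.341, adjusted p = 0.498 in edgeR's test) and -0.36 without control replicate 2. With the length trend removed it was -0.28 and under the replicate block -0.70, and in neither fit was the unadjusted p under 0.05.

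The genes whose pattern over the 8 mice was most like that of the members were ranked by Pearson's r between their log2 CPM and the mean z-score of the 9 members, among 13572 other genes. They were Pex11a (r = 0.992), Retreg1 (0.988), Pex19 (0.979), Panx3 (0.975) and Insig2 (0.973). Pex11a and Pex19 encode proteins of the peroxisome, Retreg1 a receptor for turnover of the endoplasmic reticulum, Panx3 a channel protein and Insig2 a brake on sterol synthesis. These r values describe 8 mice that share libraries and scaling with the members.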

How the data were processed

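The 8 libraries, 4 of TBX20fl/fl;K14-Cre (knockout) and 4 of TBX20fl/fl (control) skin, were read as single ends of 50 bases, filtered with SOAPnuke and aligned with HISAT by the authors, per the submitters' processing notes and the study's methods. The authors deposited estimated counts (expected counts) per gene, not normalized, of which 69.0% of those above 0 were not whole. The counting program is not given in the sources used here. The genome build is not named either, but the contig versions in the deposited table are those of GRCm38. The authors also deposited FPKM values. Over all genes these summed to 772536 in control replicate 2 and to 521852 to 605508 in the other mice. FPKM and CPM can therefore rank control replicate 2 differently. Deposited columns of the authors' own comparisons (fold changes, p-values and q-values), means and other normalized values were not used.

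The members and gene lists were chosen with earlier results of these data known. Counts were rounded, the 17124 genes whose counts summed to 10 or more were tested, and TMM-scaled counts were compared with edgeR 4.0.16 (glmQLFit, glmQLFTest) in R 4.3.3, with Benjamini-Hochberg adjustment over all genes and a threshold of 0.05. Total counts of 16056282 to 19880654 per mouse set a floor of 0.151 to 0.187 CPM (3 counts) before TMM scaling. FPKM was compared by two-sided exact permutation over 70 assignments (smallest p 0.0286), with Python 3.11.15 and scipy 1.17.1. CPM and log2 CPM of genes were TMM-scaled, and log2 CPM used a prior count of 2. Transcript lengths were derived from counts and FPKM, and the trend with length was fitted by splines with 5 degrees of freedom on the 13298 genes whose mean count reached 50. Alternatives included DESeq2 1.42.0, limma 3.58.1 on log2(FPKM + 1) and log2(FPKM + 0.1), other scalings and filters, covariates, and leaving out each mouse. Standard errors and 95% intervals follow from the log2 fold change and its F statistic. The 3 motifs of 6 bases were added after the 4 longer motifs had no match in the members. The edgeR step was run on simulated counts with known changes. These were drawn without a length trend or an outlying library, so they do not show how the step handles either.

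The labels give both groups the numbers 1 to 4 without saying what the numbers share. Across 13298 genes, deviations from the group mean correlated between same-numbered mice at r = 0.160 to 0.405 in all 4 pairs (mean 0.304), and at -0.518 to 0.426 in the 12 other pairs (mean -0.0887), the highest of which exceeded every same-numbered pair. Since all 4 same-numbered values were above 0.1, the replicate number was also used as a block. This is a hint from the data, and the labels do not state a pairing.

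All 9 members are named, with their paralogs where reads may be shared, the 2 genes of smallest edgeR p in each of 4 lists of sebaceous lipid genes and regulators, and the 5 genes most like the members. The deposited table gave the plus strand for Krt79 and Awat2 and an unplaced contig for Far2, so gene coordinates are from RefSeq on GRCm38.p6, to which 18843 gene identifiers matched.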

Additional observations from a re-analysis of the deposited data

Results flagged for a closer look

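In 2 of 34 groups of 4 mice examined, 1 mouse lay apart from the others of its group by Dixon's criterion. Chance alone flags about 1 in 20 groups, which is 1.7 of 34. The FPKM of Fads2, a desaturase of polyunsaturated fatty acids, was 8.76 in knockout replicate 2 and 1.97 to 3.02 in the other mice of that group. Without this mouse the log2 fold change of Fads2 went from 0.93 to 0.27. This mouse also had the highest summed level of hair follicle genes, 3903 CPM. The FPKM of Fabp5, a fatty acid carrier, was 2581.4 in control replicate 2 and 1345 to 1497 in the other control mice. In log2 CPM, Fabp5 in this mouse was 1.45 above the median of the other 7 mice, and 0.46 above it with the length trend removed. None of the 9 members was flagged in either group.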

How the results depend on the processing

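Each member was recomputed under 23 alternatives, 15 other settings and 8 that left out 1 mouse each. No member passed the adjusted threshold under any of them, and the log2 fold changes of Scd3, Mc5r, Awat1, Elovl3, Dgat2l6 and Mgst1 kept their direction in all 23. Scd3 had an unadjusted p under 0.05 in 20 of 24 fits (adjusted p 0.306 to 0.709), and Dgat2l6 in 13 of 24 (adjusted p 0.353 to 0.709). Without knockout replicate 4, 0 members had an unadjusted p under 0.05, and without control replicate 4, 4 members did (Awat1, Scd3, Dgat2l6 and Mgst1). Of all genes, DESeq2's Wald test passed 10 and every other setting 0, and the cause was not tested.

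The log2 fold change of Awat2 was 0.046 with total counts only, 0.12 with the length trend removed and 0.016 with the replicate block and the trend removed. That of Krt79 was -0.018 with DESeq2 size factors and with DESeq2's Wald test, -0.021 with the upper quartile, -0.0070 with filterByExpr and -0.084 with the epidermis covariate. That of Far2 was 0.10 with total counts only, 0.065 with limma on log2(FPKM + 1), with or without a filter, and on log2(FPKM + 0.1), and 0.12 with the hair follicle covariate. The cause of these reversals was not tested. Leaving out 1 mouse gave log2 fold changes of -0.51 to 0.087 for Awat2, -0.10 to 0.11 for Krt79 and -0.32 to 0.093 for Far2. It gave 0.86 to 1.43 for Scd3, -1.23 to -0.49 for Dgat2l6, 0.065 to 0.42 for Mc5r, -0.83 to -0.20 for Awat1, -0.79 to -0.16 for Elovl3 and -0.93 to -0.16 for Mgst1, and FPKM differences of -19.0 to 15.9 for Awat2 and -27.0 to 56.9 for Far2. Total counts only moved the median of all genes to 0.17 and limma on log2(FPKM + 0.1) moved it to 0.18. Relative to these shifts the members' medians were lower, at 0.046 and -0.037.

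With the replicate block the log2 fold changes were 1.12 for Scd3 and -0.84 for Dgat2l6, between -0.55 and 0.26 for the other members, and the block changed no adjusted call. Depth did not limit the members, which had at least 405 counts in every mouse, but 4 mice against 4 limit the precision. The exact permutation test on FPKM cannot go below p = 0.0286, and over 15970 genes its smallest adjusted p was 0.388.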
